A study of Mus musculus with 96 samples.

Results

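The 40 genes described here encode the machinery with which a cell commits to division, copies its DNA and parts its chromosomes. They were taken by symbol from a written list, and all 40 were found among the 55376 genes of the count table. They were grouped as 2 D-type cyclins of G1, 10 S phase genes and 28 mitotic genes. All 40 passed the filter on low counts that left 15629 genes for testing. RNA was sequenced from heart ventricles of mice carrying a cardiomyocyte-restricted, inducible knockout of Bmal1, which encodes an activator of the circadian clock and is listed as Arntl. The stated aim was to learn how Bmal1 bears on sex differences in the heart's circadian transcriptome. Every library, the vehicle ones included, bears the genotype label iCSBmal1 KO, and the groups differ in sex and in treatment with tamoxifen, the drug that induces the knockout, or vehicle. The 4 groups of 24 libraries are tamoxifen females, tamoxifen males, vehicle females and vehicle males by their titles, whose letters F and M were read as female and male. Each group was sampled at 12 circadian times from ct 18 to ct 62, every 4 h, with 2 libraries per time. The drug and the knockout cannot be told apart, because no group received tamoxifen without the knockout genotype. The numbers in the titles form separate series for vehicle males, vehicle females and tamoxifen libraries, without overlap. The labels do not say what these numbers stand for. Tamoxifen against vehicle, the sexes with vehicle and the interaction therefore cannot be told apart from a difference between the series. The labels give no age and no promoter for the recombinase, nor whether each library is a different animal, so the p-values rest on library-to-library spread, which may be technical.

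Progress through the cell cycle is driven by cyclins, which activate the cyclin-dependent kinases. D-type cyclins open G1, and E2F factors then switch on the genes of DNA replication. A later wave of mitotic genes is switched on by the MuvB complex with the factors B-Myb and FoxM1 through a promoter element called CHR (cell cycle genes homology region), often with CCAAT boxes bound by NF-Y. In the adult heart most cardiomyocytes have left the cell cycle, and most dividing cells of the ventricle are endothelial cells, fibroblasts and leukocytes, so transcripts of the mitotic machinery come from a minority of the cells in bulk ventricle RNA. Fewer cells of a type and less RNA per cell cannot be told apart in such samples.

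The promoters of 9 members are shown. Of these, 8 belong to genes that were called lower with tamoxifen in both sexes with all libraries kept, and Cenpf moved in opposite directions in the sexes. Some of these calls were lost when libraries were left out, as given below. Each run covers 150 bases before the annotated start and 30 from it, read 5′ to 3′ in the direction of transcription, and capitals mark CCAAT boxes and CHR elements on either strand. The sequences come from RefSeq on GRCm38.p6, with Mcm7 at chr5:138171854-138172033 (− strand), Mki67 at chr7:135716350-135716529 (− strand), Top2a at chr11:99024160-99024339 (− strand), Ccnb1 at chr13:100786457-100786636 (− strand), Kif23 at chr9:61946770-61946949 (− strand), Cdc20 at chr4:118437314-118437493 (− strand), Prc1 at chr7:80294301-80294480 (+ strand), Smc2 at chr4:52439071-52439250 (+ strand) and Cenpf at chr1:189688057-189688236 (− strand).
Mcm7: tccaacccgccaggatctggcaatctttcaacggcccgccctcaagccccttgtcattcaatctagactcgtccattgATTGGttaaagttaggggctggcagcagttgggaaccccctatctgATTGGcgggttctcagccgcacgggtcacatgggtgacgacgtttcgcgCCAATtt
Mki67: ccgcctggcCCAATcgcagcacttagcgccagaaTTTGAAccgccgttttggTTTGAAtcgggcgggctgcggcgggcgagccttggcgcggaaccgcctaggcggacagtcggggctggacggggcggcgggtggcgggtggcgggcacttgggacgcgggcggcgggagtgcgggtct
Top2a: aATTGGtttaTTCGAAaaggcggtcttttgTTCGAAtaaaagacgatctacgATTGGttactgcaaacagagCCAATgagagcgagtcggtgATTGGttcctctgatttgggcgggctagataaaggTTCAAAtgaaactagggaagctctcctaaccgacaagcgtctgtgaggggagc
Ccnb1: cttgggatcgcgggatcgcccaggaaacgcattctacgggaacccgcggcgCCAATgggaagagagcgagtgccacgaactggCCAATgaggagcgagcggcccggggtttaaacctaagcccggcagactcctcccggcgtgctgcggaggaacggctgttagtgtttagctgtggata
Kif23: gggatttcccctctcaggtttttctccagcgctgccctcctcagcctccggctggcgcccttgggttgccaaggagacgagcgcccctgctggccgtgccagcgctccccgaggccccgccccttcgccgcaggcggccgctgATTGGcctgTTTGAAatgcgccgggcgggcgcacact
Cdc20: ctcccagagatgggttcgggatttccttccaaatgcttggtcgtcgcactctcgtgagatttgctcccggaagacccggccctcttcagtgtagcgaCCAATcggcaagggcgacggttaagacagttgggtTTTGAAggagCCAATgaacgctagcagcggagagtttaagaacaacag
Prc1: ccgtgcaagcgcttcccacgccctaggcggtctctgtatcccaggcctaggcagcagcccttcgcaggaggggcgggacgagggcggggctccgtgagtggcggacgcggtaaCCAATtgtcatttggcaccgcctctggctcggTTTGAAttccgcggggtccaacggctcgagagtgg
Smc2: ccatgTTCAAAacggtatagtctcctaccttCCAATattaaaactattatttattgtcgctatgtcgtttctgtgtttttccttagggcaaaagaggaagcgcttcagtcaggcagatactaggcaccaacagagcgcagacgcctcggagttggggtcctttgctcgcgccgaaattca
Cenpf: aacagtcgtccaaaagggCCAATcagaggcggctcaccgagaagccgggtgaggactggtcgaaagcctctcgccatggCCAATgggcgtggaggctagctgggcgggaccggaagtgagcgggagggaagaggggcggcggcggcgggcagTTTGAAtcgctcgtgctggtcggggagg
In these windows Mcm7 and Ccnb1 held CCAAT boxes without a CHR, and the other 7 promoters held both.

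The motifs were counted in the RefSeq windows of 300 bases, 250 before the start and 50 from it, for the 33 members found in the promoter table. CCAAT (or ATTGG on the other strand) stood in 87.5% of 24 mitotic promoters and in 88.9% of 9 S phase promoters, against 37.9% of all 27025 promoters of the table. The CHR, spelled TTTGAA on either strand, with TTCGAA taken as its second form, stood in 83.3% of mitotic promoters and 22.2% of S phase promoters, against 19.4% of all promoters. The E2F core, spelled TTGGCGC in its main form, with TTCGCGC as the next form, TTCCCGC as another and TTGCCGC as the last, on either strand, ran the other way, with 16.7% of mitotic and 66.7% of S phase promoters, against 9.69% of all. The canonical E-box CACGTG, the element that BMAL1 and CLOCK bind, was found in 6.06% of member promoters (2 of 33, Tyms and Anln), against 7.24% of all promoters. None of these motifs contains another, ATTGG and TTGGCGC can share letters, and a match describes the letters only. The share of mitotic promoters with a CHR was 45.8% when only the 250 bases before the start were read, so a part of the matches lies in the 50 bases from the start.

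Library totals averaged 15852469 counts in tamoxifen females (12408557 to 19137075), 15863681 in tamoxifen males (10144623 to 19353081), 16385396 in vehicle females (12541561 to 20596194) and 12972538 in vehicle males (8944955 to 15588379). The level allowed by a count of 0, taken as 3 counts, was 0.335 CPM (counts scaled to the same library size) in the smallest library and 0.146 CPM in the largest, for counting error only. Arntl, the targeted gene, had a narrower range over the day with tamoxifen, with means per time of 6.72 to 27.9 CPM in tamoxifen females and 5.999 to 31.4 in tamoxifen males, against 1.46 to 48.1 in vehicle females and 1.55 to 46.2 in vehicle males. Its median over the 24 libraries was 16.2 CPM in tamoxifen females and 13.8 in vehicle females. In males the Arntl median was 13.2 CPM with tamoxifen and 14.2 with vehicle. Counts over the whole gene do not show the deleted part alone. In 3 tamoxifen libraries Arntl was far below the other library of the same group and time, namely 1.31 against 17.8 CPM in males at ct 54, 2.96 against 9.04 in males at ct 38 and 2.85 against 10.6 in females at ct 58. The first of these was the highest tamoxifen male for 10 of the 28 mitotic genes. Vehicle males held 19.2 to 25.3 CPM of Arntl at ct 54 and 1.265 to 3.158 CPM at ct 38. Vehicle females held 1.113 to 2.199 CPM at ct 58. One library labelled tamoxifen female, of ct 54, goes against its label, with 0.272 CPM of Xist (194.1 to 472.6 in the other 47 female libraries) and 11.3 CPM of the Y-linked Ddx3y (at most 0.117 in the other females, 121.7 to 202.6 in males). It was kept under its label, and counts without it are given beside the results it moves. The atrial gene Myl7 exceeded 20 CPM in 13 libraries, 1 tamoxifen female, 2 tamoxifen males, 7 vehicle females and 3 vehicle males. The 8 cardiomyocyte markers summed to 32410 to 57820 CPM over all libraries and none was at 0 in any group. Of the vehicle males, 10 libraries stand apart, with 0.123% to 0.190% of their counts on the annotation class TEC (transcribed regions awaiting experimental evidence), while the other 14 vehicle males had 0.0814% to 0.106% and no library of the other groups exceeded 0.112%. Endothelial markers summed to 2695 to 3478 CPM in these 10 libraries and to 1752 to 2355 CPM in the other 14, with no overlap, and 35 of the 40 members had a higher mean in the 10. Cardiomyocyte markers were lower in the 10, with sums of 32410 to 44390 CPM against 43180 to 50580 (medians 39110 and 48220). Median sums in the 10 and the 14 were 1503 and 1714 CPM for mural markers and 501.8 and 499.3 for macrophage markers. They were 2387 and 2170 CPM for fibroblast and 1042 and 763.5 for erythroid markers. Vehicle male library 35 at ct 62, which is among the 10, was the highest vehicle male for 23 of the 28 mitotic genes. Counts that rest on vehicle males, and single calls that are lost, are therefore given with and without these libraries.

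Per kilobase of exon, the D-type cyclins and the sliding clamp were the most abundant members. Averaged over the groups, Ccnd1 stood at 19.1 CPM per kb, Ccnd2 at 18.4 and Pcna at 16.5. The condensin subunit Smc4 followed with 6.41 CPM per kb and Hmgb2, an HMG-box chromatin protein, with 6.21. The lowest was the checkpoint kinase Bub1 with 0.115 CPM per kb, and Mki67 ranked 17 of 40 with 0.625. Cenpf, a kinetochore protein, was the seventh most abundant with 2.85 CPM per kb, far above the other kinetochore gene Cenpe with 0.127. All levels below are CPM after TMM scaling, and comparisons between groups are for the same gene. The lowest libraries of Ccnb1, Ccnb2, Aurkb, Bub1 and Birc5 held fewer than 3 counts.

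In female hearts a part of the genes, Mki67 foremost, was lower with tamoxifen, and no increase was called. Of the 40 members 16 were lower and 0 higher in tamoxifen females than in vehicle females (edgeR quasi-likelihood test, Benjamini-Hochberg adjusted p under 0.05 over all 15629 genes), against 12.3% of all tested genes lower and 15.2% higher. At an unadjusted p under 0.05 there were 27 lower and 0 higher. DESeq2 called 17 lower and 0 higher, beside 2098 and 2264 of all genes. The log2 change was negative for 38 members, with a median of −0.24 beside 0.01 over all genes. Of the mitotic genes 11 of 28 fell, with a median log2 change of −0.34, of the S phase genes 3 of 10 (Mcm2, Mcm4 and Mcm7), with a median of −0.12, and both D-type cyclins fell. Without the 13 libraries above 20 CPM of Myl7 the count was 10 lower, against 9.61% of all genes, of which 9 were among the 16, and none of them was an S phase gene. Aurkb (−0.42, adjusted p = 0.237), Ccnb1, Prc1, Smc2, Mcm2, Mcm4 and Mcm7 were then not called. Atrial cardiomyocyte markers were lower for 2 of 3 tested, with a median log2 change of −2.15 and sums of 38.3 to 3534 CPM in tamoxifen females and 53.7 to 2243 in vehicle females. Without the library that goes against its label 18 members were lower, beside 1947 of all genes. Macrophage markers moved with them, with 8 of 12 lower and sums of 264 to 558.8 CPM in tamoxifen females against 369 to 605 in vehicle females. Endothelial markers were lower for 2 of 10 and summed to 1454 to 1936 CPM in tamoxifen females and 1600 to 2597 in vehicle females, and 6 of 8 fibroblast markers were higher, with sums of 2000 to 3450 CPM in tamoxifen females and 1958 to 3169 in vehicle females. No marker of these 4 lists was at 0 in either group, and their part in the result was not tested.

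With all libraries kept, the called decreases were more numerous in male than in female hearts, but so were those of all genes. Without the 10 vehicle males high in TEC counts the order turned for the members. Then 17 were lower in females only and 5 in males only, against 9.77% and 13.8% of all genes. Of the 40 members 31 were lower and 2 higher (Rrm1 and Cenpf) in tamoxifen males than in vehicle males, against 37.8% of all tested genes lower and 32.2% higher (70.0% in either direction), by the same test. The median log2 change was −0.47 beside −0.05 over all genes. Of the mitotic genes 25 of 28 fell and 1 rose, with a median of −0.55, and of the S phase genes 5 of 10 fell (Tyms, Mcm3, Mcm5, Mcm6 and Mcm7) and 1 rose, with a median of −0.24. Without the 10 vehicle males high in TEC counts, 13 members were lower (20.2% of all genes) and 1 was higher (beside 3467 of all genes), the median was −0.21, and the 13 were Tyms, Mcm3, Mcm5, Mcm7, Mki67, Ccna2, Aurkb, Bub1, Cenpe, Birc5, Cdc20, Racgap1 and Hmgb2. Without vehicle male library 35 alone, 30 were lower and 2 higher, beside 5747 and 4964 of all genes. Endothelial markers fell for 10 of 10, with sums of 1528 to 2103 CPM in tamoxifen males against 1752 to 3478 in vehicle males, and without the 10 libraries for 2 of 10. Macrophage markers fell for 7 of 12 (327 to 611 CPM in tamoxifen males, 419 to 790 in vehicle males) with or without those libraries. Neutrophil markers fell for 3 of 3 tested with or without them. Lymphocyte markers fell for 4 of 5 tested and rose for 1, or fell for 2 of 7 and rose for 1 without them. Of the 8 cardiomyocyte markers 5 were higher and 3 lower, with sums of 42890 to 57820 CPM in tamoxifen males and 32410 to 50580 in vehicle males. No marker of these lists was at 0 in these groups, and the part of these cell types in the result was not tested.

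**Figure D1:**
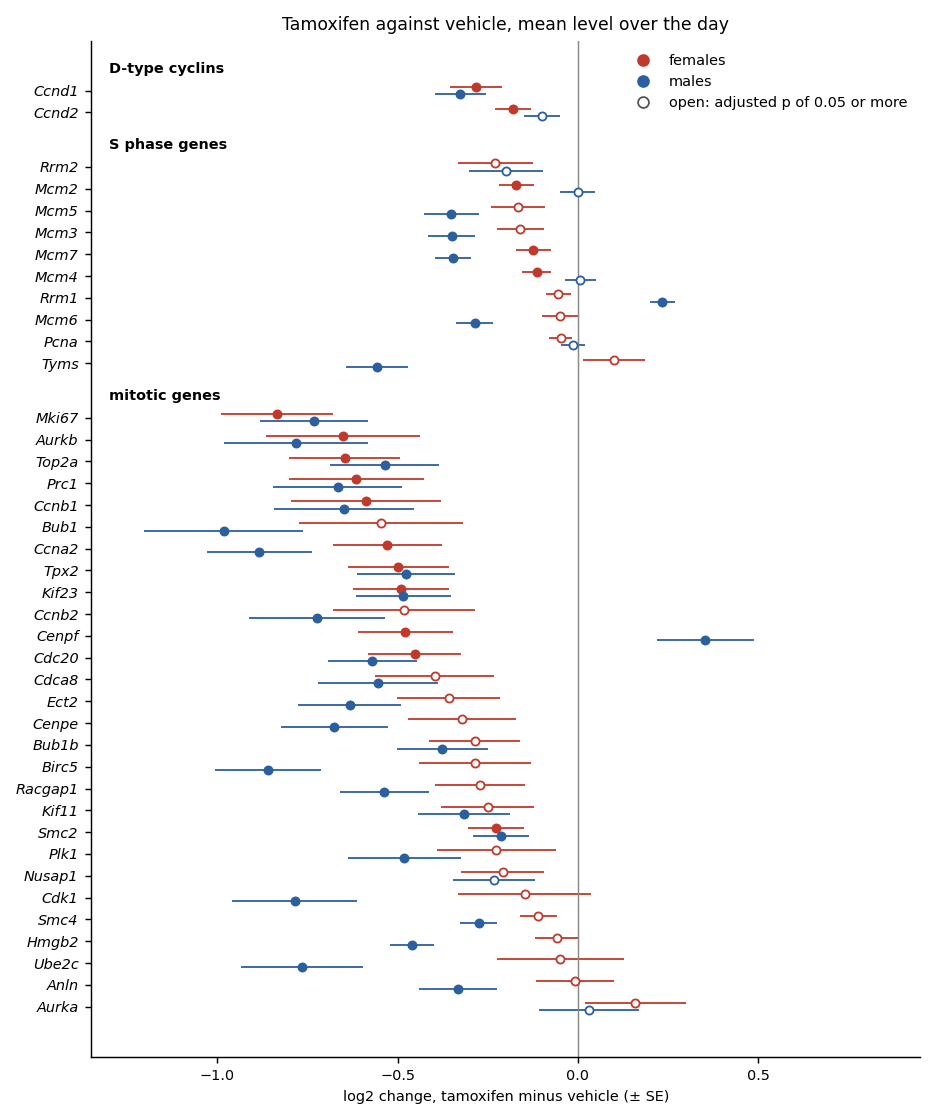
Log2 change with tamoxifen (tamoxifen minus vehicle) of the 40 members, with standard errors, in females and in males, ordered by role. In females 38 of the 40 values lie below 0, and the values of the males reach −0.98 for Bub1.

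Members called lower in both sexes numbered 12, namely Ccnd1, Mcm7, Mki67, Top2a, Ccna2, Ccnb1, Aurkb, Kif23, Tpx2, Cdc20, Prc1 and Smc2, against 6.74% of all tested genes. A further 4 were called in females only (Ccnd2, Mcm2, Mcm4 and Cenpf) and 19 in males only, against 5.53% and 31.0%. When the 10 vehicle males were left out, 8 were called in both sexes, against 6.40% of all genes. Of the 12 these kept Mcm7, Mki67, Ccna2, Aurkb and Cdc20, and the others were Mcm3, Mcm5 and Bub1. A further 17 were then called in females only and 5 in males only, against 9.77% and 13.8% of all genes. Of those called in males only with all libraries, Ccnb2, Bub1b, Cdca8, Ect2 and Smc4 were then called in females only. Without the libraries above 20 CPM of Myl7, 8 were called in both sexes, against 5.76% of all genes. These were Ccnd1, Mki67, Top2a, Ccna2, Kif23, Tpx2, Cdc20 and Cdca8. In this setting 2 were called in females only and 23 in males only, against 3.85% and 31.4% of all genes. Of the 12, Mki67, Ccna2 and Cdc20 kept the call under both exclusions. Whether a gene differed between the sexes is given by the interaction test below. The 2 comparisons share no libraries. Leaving out the 3 tamoxifen libraries low in Arntl gave 16 lower members in females and 32 in males, beside 2037 and 5931 of all genes.

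Among the D-type cyclins, which bind CDK4 and CDK6 to open G1, Ccnd1 ran from 44.0 to 105.6 CPM with a median of 65.0 in tamoxifen females, from 68.6 to 115.4 with a median of 94.7 in tamoxifen males. It ran from 58.1 to 105.4 with a median of 80.3 in vehicle females and from 81.6 to 169.1 with a median of 114.9 in vehicle males. It was lowest in tamoxifen females, and all groups overlapped. The log2 change with tamoxifen was −0.28 ± 0.07 in females (SE, adjusted p = 0.00151) and −0.33 ± 0.07 in males (adjusted p = 4.58e-05; −0.16, adjusted p = 0.126, without the 10 vehicle males). Exons of Ccnd1 share 1100 bases with LTO1 on the opposite strand, and the strandedness of the counting is not given in the sources used here. Ccnd2 had medians of 161.1 CPM in tamoxifen females (131.3 to 218.0), 162.6 in tamoxifen males (114.1 to 217.5), 190.7 in vehicle females (139.0 to 231.5) and 174.4 in vehicle males (142.3 to 212.1). It fell in females (log2 change −0.18 ± 0.05, adjusted p = 0.00375, lower at 11 of 12 times) and did not pass in males (−0.10 ± 0.05, adjusted p = 0.0670).

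Of the S phase genes, those of nucleotide supply did not move together. Rrm1, the large subunit of ribonucleotide reductase, had medians of 24.8 CPM in tamoxifen females (21.1 to 28.6), 22.7 in tamoxifen males (19.5 to 26.01), 25.6 in vehicle females (20.7 to 29.2) and 19.2 in vehicle males (14.9 to 24.9). Its level rose in males (log2 change 0.23 ± 0.04, adjusted p = 1.14e-08) and did not pass in females (−0.05 ± 0.03, adjusted p = 0.239). Rrm2, the small subunit whose level follows S phase, averaged 2.11 ± 0.58 CPM in tamoxifen females, 2.51 ± 0.53 in tamoxifen males, 2.47 ± 0.50 in vehicle females and 2.90 ± 1.04 in vehicle males (SD, n = 24 each). It passed in neither sex (adjusted p = 0.0933 and 0.0788, edgeR quasi-likelihood test). Tyms, thymidylate synthase, which makes dTMP, had medians of 2.62 CPM in tamoxifen females (1.70 to 4.17), 2.39 in tamoxifen males (1.65 to 3.23), 2.42 in vehicle females (1.83 to 3.97) and 3.31 in vehicle males (2.03 to 6.11). Vehicle males had the highest median, and the log2 change of Tyms in males was −0.56 ± 0.09 (adjusted p = 2.72e-08), against 0.10 ± 0.09 in females (adjusted p = 0.407). The male value was −0.28 (adjusted p = 0.0119) without the 10 vehicle males. The highest tamoxifen female belongs to the library that goes against its label, and the next was at 3.43 CPM. A pseudogene, Tyms-ps, is annotated, and reads could be shared with it.

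Pcna, the sliding clamp of DNA polymerases, varied little. Its medians were 40.4 CPM in tamoxifen females (32.5 to 43.4), 37.5 in tamoxifen males (34.1 to 48.2), 40.5 in vehicle females (35.7 to 48.8) and 39.2 in vehicle males (31.4 to 44.4). The log2 changes were −0.05 ± 0.03 in females and −0.01 ± 0.03 in males, neither called. Pcna has 2 annotated pseudogenes.

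The Mcm2 to Mcm7 genes encode the ring-shaped helicase that licenses replication origins and unwinds DNA. In females 3 of these subunits fell by small amounts. Mcm2 had medians of 6.92 CPM in tamoxifen females (5.67 to 9.54), 7.43 in tamoxifen males (5.76 to 8.76), 8.23 in vehicle females (5.69 to 9.99) and 7.53 in vehicle males (5.20 to 8.59). The groups overlapped over most of their range, and the log2 change was −0.17 ± 0.05 in females (adjusted p = 0.00454) and −0.00 ± 0.05 in males (adjusted p = 0.989). Mcm4 ran from 9.28 to 13.97 CPM (median 11.8) in tamoxifen females, from 8.14 to 13.8 (10.6) in tamoxifen males, from 9.47 to 15.7 (13.1) in vehicle females and from 8.78 to 13.3 (10.5) in vehicle males. Its log2 change was −0.11 ± 0.04 in females (adjusted p = 0.0263) and 0.01 ± 0.04 in males (adjusted p = 0.891). Mcm7 was called in both sexes. It had medians of 11.03 CPM in tamoxifen females (8.18 to 14.2), 9.55 in tamoxifen males (7.01 to 13.9), 11.7 in vehicle females (9.65 to 14.9) and 12.5 in vehicle males (8.39 to 17.2). Its log2 change was −0.12 ± 0.05 in females (adjusted p = 0.0470) and −0.35 ± 0.05 in males (adjusted p = 2.97e-09), in the decreasing direction at all 12 times in males, and −0.28 (adjusted p = 6.21e-05) without the 10 vehicle males. Mcm7 shares 321 exon bases with Ap4m1 and 64 with Cops6. With all libraries kept, the remaining subunits were called in males only. Their log2 changes in males were −0.35 ± 0.07 for Mcm3, −0.35 ± 0.08 for Mcm5 and −0.29 ± 0.05 for Mcm6. Without the 10 libraries Mcm6 was no longer called in males (−0.12, adjusted p = 0.0624), while Mcm3 and Mcm5 were called lower in both sexes.

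Mki67 had the largest log2 change of the members in females. This gene, which encodes Ki-67, the coat protein of mitotic chromosomes, ran from 1.37 to 7.03 CPM with a median of 3.27 in tamoxifen females, from 2.60 to 8.21 with a median of 5.35 in tamoxifen males. It ran from 3.63 to 11.8 with a median of 6.31 in vehicle females and from 4.10 to 27.7 with a median of 8.49 in vehicle males. Tamoxifen females were lowest and vehicle males highest, the groups overlapped, and the 27.7 CPM belonged to library 35. The log2 change of Mki67 was −0.84 ± 0.16 in females (adjusted p = 1.07e-05, lower at 11 of 12 times) and −0.73 ± 0.15 in males (adjusted p = 1.37e-05, lower at 10 of 12 times). Without the 10 vehicle males the male value was −0.40 (adjusted p = 0.0468), and without library 35 it was −0.59 (adjusted p = 0.000114). Top2a, topoisomerase II alpha, which untangles sister chromatids, had medians of 2.52 CPM in tamoxifen females (0.683 to 4.28), 3.31 in tamoxifen males (1.01 to 5.54), 3.80 in vehicle females (2.04 to 6.72) and 4.89 in vehicle males (1.85 to 15.6). It fell by 0.65 ± 0.15 on the log2 scale in females (adjusted p = 0.000659) and by 0.54 ± 0.15 in males (adjusted p = 0.00119), and the male call was lost without the 10 libraries (−0.22, adjusted p = 0.292).

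**Figure D2:**
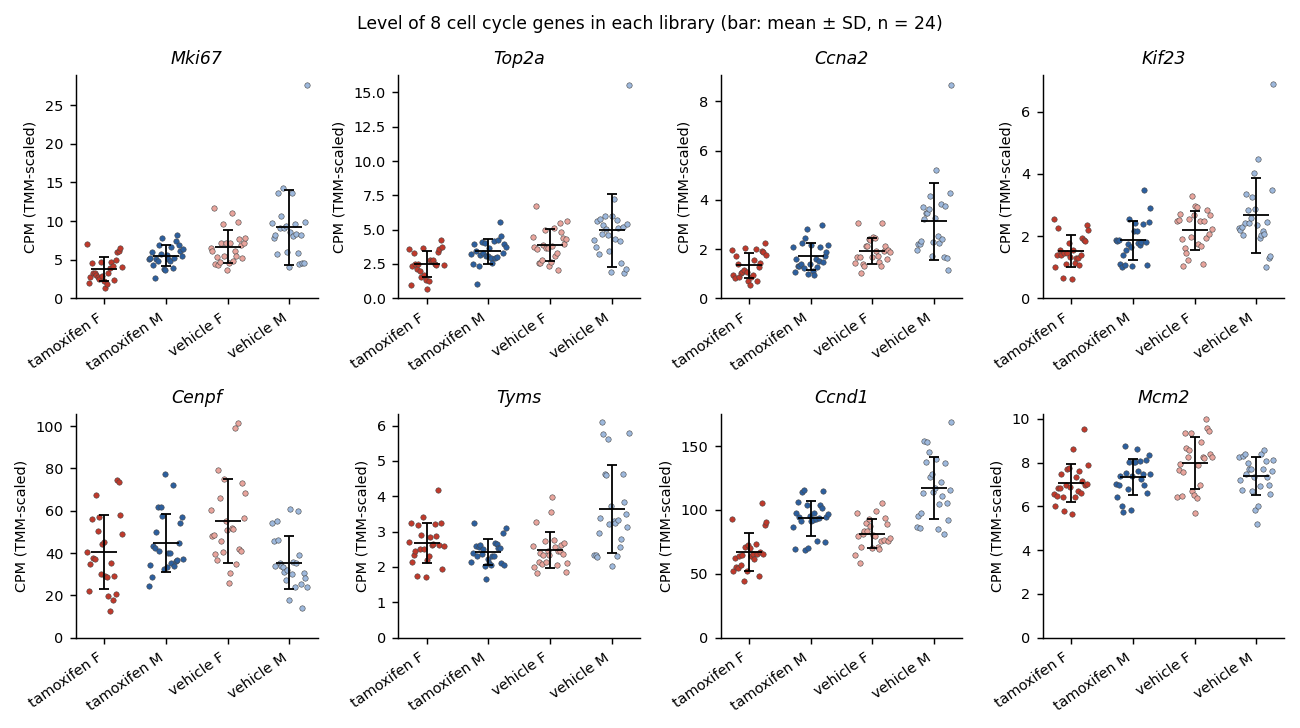
Levels of 8 members in every library (points, TMM-scaled CPM), with the mean and SD of each group of 24 libraries beside them. For Mki67 the tamoxifen females average 3.74 and the vehicle males 9.21 CPM, with 1 vehicle male library at 27.7.

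The mitotic kinase and its cyclins were lower with tamoxifen in male hearts. Cdk1, the kinase that drives entry into mitosis, had medians of 0.769 CPM in tamoxifen females (0.262 to 1.60), 0.907 in tamoxifen males (0.354 to 1.80), 0.828 in vehicle females (0.320 to 1.64) and 1.39 in vehicle males (0.581 to 4.63). Its log2 change was −0.15 ± 0.18 in females (adjusted p = 0.597) and −0.79 ± 0.17 in males (adjusted p = 4.97e-05; −0.41, adjusted p = 0.104, without the 10 vehicle males). Ccna2, cyclin A2, which acts in S phase and at mitotic entry, had medians of 1.22 CPM in tamoxifen females (0.547 to 2.25), 1.54 in tamoxifen males (0.948 to 2.99), 1.89 in vehicle females (1.04 to 3.08) and 2.88 in vehicle males (1.16 to 8.69). It fell in both sexes, by 0.53 ± 0.15 on the log2 scale in females (adjusted p = 0.00518) and by 0.88 ± 0.15 in males (adjusted p = 1.39e-07), and was still called in males without the 10 libraries (−0.53, adjusted p = 0.00684). Ccnb1, cyclin B1, had medians of 0.347 CPM in tamoxifen females (0.0575 to 0.734), 0.478 in tamoxifen males (0.0723 to 0.995), 0.547 in vehicle females (0.118 to 1.02) and 0.736 in vehicle males (0.0955 to 2.17), near or below the level of 3 counts in its lowest libraries. The log2 change of Ccnb1 was −0.59 ± 0.21 in females (adjusted p = 0.0257) and −0.65 ± 0.19 in males (adjusted p = 0.00223; −0.23, adjusted p = 0.467, without the 10 vehicle males). Ccna2 shares 510 exon bases with Exosc9, and Ccnb1 and Ccnb2 have annotated pseudogenes.

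Of the chromosomal passenger complex, which corrects chromosome attachments and starts cytokinesis, the kinase Aurkb had medians of 0.298 CPM in tamoxifen females (0.0597 to 1.05), 0.509 in tamoxifen males (0.0723 to 0.933), 0.553 in vehicle females (0.0703 to 1.06) and 0.721 in vehicle males (0.283 to 2.10). It fell in both sexes, with log2 changes of −0.65 ± 0.21 in females (adjusted p = 0.0153) and −0.78 ± 0.20 in males (adjusted p = 0.000405; −0.57, adjusted p = 0.0407, without the 10 vehicle males). The subunit Birc5, known as survivin, had medians of 0.610 CPM in tamoxifen females (0.131 to 1.14), 0.625 in tamoxifen males (0.156 to 1.24), 0.758 in vehicle females (0.418 to 1.16) and 1.18 in vehicle males (0.477 to 3.47). Vehicle males were the highest group, and Birc5 was lower with tamoxifen at 12 of 12 times in males (log2 change −0.86 ± 0.15, adjusted p = 3.33e-07; −0.64, adjusted p = 0.000978, without the 10 libraries), while in females it did not pass (−0.29 ± 0.16, adjusted p = 0.170). Cdca8, the subunit borealin, was called in males (−0.55 ± 0.17, adjusted p = 0.00232; −0.26, adjusted p = 0.328, without the 10 libraries) and not in females (−0.40 ± 0.17, adjusted p = 0.0625). Aurka, the spindle pole kinase, was the member with the highest log2 change in females, 0.16 ± 0.14, and was called in neither sex.

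Genes of the spindle checkpoint and kinetochore split. Bub1, the checkpoint kinase, had medians of 0.275 CPM in tamoxifen females (0.0739 to 0.836), 0.385 in tamoxifen males (0.0698 to 0.887), 0.482 in vehicle females (0.104 to 1.09) and 0.638 in vehicle males (0.206 to 2.75). It had the largest decrease of the members in males, with a log2 change of −0.98 ± 0.22 (adjusted p = 6.63e-05; −0.72, adjusted p = 0.0223, without the 10 vehicle males), and in females its value of −0.55 ± 0.23 did not pass (adjusted p = 0.0642). Bub1b (BubR1) and the kinetochore motor Cenpe were called lower in males (log2 changes −0.38 ± 0.13 and −0.68 ± 0.15) and not in females. Without the 10 vehicle males these were −0.03 (adjusted p = 0.874) and −0.51 (adjusted p = 0.0147). Cenpf, a large kinetochore protein, was abundant and went in opposite directions. It ran from 12.5 to 74.4 CPM with a median of 37.5 in tamoxifen females, from 24.3 to 77.4 with a median of 40.7 in tamoxifen males. In the vehicle groups it ran from 25.7 to 101.4 with a median of 51.2 in vehicle females and from 13.8 to 60.7 with a median of 33.5 in vehicle males. Cenpf fell in females (log2 change −0.48 ± 0.13, adjusted p = 0.00364) and rose in males (0.35 ± 0.13, adjusted p = 0.0157), where the call was lost without the 10 vehicle males (0.17, adjusted p = 0.439). In the 10 libraries Cenpf averaged 27.2 CPM and in the other 14 vehicle males 41.5 CPM, so that, unlike most members, it was lower in them.

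The genes of the spindle midzone and cytokinesis were in part lower in both sexes. Prc1, which bundles midzone microtubules, had medians of 1.14 CPM in tamoxifen females (0.197 to 2.63), 1.54 in tamoxifen males (0.578 to 3.05), 1.88 in vehicle females (0.956 to 2.82) and 2.40 in vehicle males (0.599 to 8.902). Its log2 changes were −0.62 ± 0.19 in females (adjusted p = 0.00853) and −0.67 ± 0.18 in males (adjusted p = 0.000658; −0.27, adjusted p = 0.293, without the 10 vehicle males), and 911 of its exon bases are shared with Rccd1. Kif23, the motor of centralspindlin, had medians of 1.43 CPM in tamoxifen females (0.615 to 2.54), 1.81 in tamoxifen males (1.01 to 3.48), 2.36 in vehicle females (1.04 to 3.28) and 2.39 in vehicle males (0.998 to 6.88). It fell by 0.49 ± 0.13 on the log2 scale in females (adjusted p = 0.00319) and by 0.48 ± 0.13 in males (adjusted p = 0.000833; −0.21, adjusted p = 0.279, without the 10 vehicle males). Its partner Racgap1, the RhoA activator Ect2 and the contractile ring scaffold Anln were called in males only, with log2 changes of −0.54 ± 0.12, −0.63 ± 0.14 and −0.33 ± 0.11, and in females Ect2 came close to the threshold (−0.36 ± 0.14, adjusted p = 0.0508). The male values without the 10 vehicle males were −0.46 for Racgap1 (adjusted p = 0.00720), −0.35 for Ect2 (adjusted p = 0.0823) and 0.05 for Anln (adjusted p = 0.753).

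Of the remaining mitotic genes, Tpx2 (a spindle assembly factor), Cdc20 (the activator of the anaphase-promoting complex) and Smc2 (a condensin subunit) fell in both sexes. Their log2 changes in females were −0.50 ± 0.14, −0.45 ± 0.13 and −0.23 ± 0.08, and in males −0.48 ± 0.14, −0.57 ± 0.12 and −0.21 ± 0.08. Of the male calls that of Cdc20 was kept without the 10 vehicle males (−0.35, adjusted p = 0.0397), while Tpx2 (−0.18, adjusted p = 0.340) and Smc2 (−0.05, adjusted p = 0.719) were not called. Ube2c, the ubiquitin-conjugating enzyme of the same complex as Cdc20, had medians of 0.812 CPM in tamoxifen females (0.327 to 3.70), 0.858 in tamoxifen males (0.416 to 2.10), 0.908 in vehicle females (0.381 to 1.99) and 1.60 in vehicle males (1.003 to 2.77). Vehicle males had the highest median, the groups overlapped, and the log2 change was −0.77 ± 0.17 in males (adjusted p = 4.95e-05; −0.50, adjusted p = 0.0597, without the 10 vehicle males) and −0.05 ± 0.18 in females (adjusted p = 0.872). Ube2c shares 592 exon bases with the muscle gene Tnnc2 on the opposite strand. Hmgb2 had medians of 17.1 CPM in tamoxifen females (11.2 to 22.2), 16.2 in tamoxifen males (14.2 to 23.3), 16.6 in vehicle females (13.4 to 30.4) and 22.4 in vehicle males (15.98 to 34.2). Its called decrease was in males (log2 change −0.46 ± 0.06, adjusted p = 5.49e-10, lower at 12 of 12 times; −0.34, adjusted p = 9.47e-05, without the 10 vehicle males). Smc4, the partner of Smc2, had medians of 33.1 CPM in tamoxifen females (26.8 to 39.8), 28.9 in tamoxifen males (24.4 to 41.3), 36.0 in vehicle females (31.1 to 40.9) and 32.9 in vehicle males (27.2 to 54.9). Its male log2 change of −0.28 ± 0.05 (adjusted p = 3.20e-06) was −0.09 (adjusted p = 0.132) without the 10 libraries. Plk1 (polo-like kinase), Kif11 (the motor that parts the spindle poles) and Ccnb2 (cyclin B2) were called lower in males only and lost the call without the 10 vehicle males (0.01, −0.08 and −0.32). Nusap1, a microtubule bundling protein, was called in neither sex.

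Between the sexes with tamoxifen, few members differed. Tamoxifen females had lower levels than tamoxifen males for 2 members and higher levels for 4, against 3.60% and 4.08% of all tested genes, and the median log2 difference (female minus male) was −0.11. The 2 lower genes were Mki67, with medians of 3.27 CPM in tamoxifen females and 5.35 in tamoxifen males (log2 difference −0.56 ± 0.16, adjusted p = 0.0142), and Ccnd1, with medians of 65.0 CPM in tamoxifen females and 94.7 in tamoxifen males (−0.48 ± 0.07, adjusted p = 3.10e-07), both lower in females at 12 of 12 times. The 4 higher genes were Smc4 (0.19 ± 0.05), Mcm7 (0.18 ± 0.05), Mcm4 (0.16 ± 0.04) and Rrm1 (0.10 ± 0.03), so 3 of the 10 S phase genes were higher in tamoxifen females. Fibroblast markers were higher for 6 of 8, with a median of 0.37 and sums of 2000 to 3450 CPM in tamoxifen females and 1779 to 3253 in tamoxifen males, none was at 0, and their part in the result was not tested. Without the library that goes against its label 4 members were lower, beside 530 of all genes. Although this comparison holds no vehicle library, the model shares its spread over all groups, and 8 members were lower when the 10 vehicle males were left out and 7 without library 35. Of all genes 937 and 604 were then lower. The 8 lower genes without the 10 vehicle males were Ccnd1, Rrm2, Mki67, Top2a, Tpx2, Cdc20, Prc1 and Nusap1.

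With vehicle, females had lower levels of most mitotic genes than males. In vehicle females 26 members were lower and 6 higher than in vehicle males, against 36.5% and 31.8% of all tested genes (68.3% in either direction), with a median log2 difference of −0.33 beside −0.03 over all genes. Of the mitotic genes 21 of 28 were lower and 1 (Cenpf) higher, and of the S phase genes 4 of 10 were lower (Rrm2, Tyms, Mcm3 and Mcm6) and 4 higher (Rrm1, Pcna, Mcm2 and Mcm4). The largest differences were those of Cdk1 (−0.86 ± 0.17, adjusted p = 1.01e-05), Ube2c (−0.82 ± 0.17, adjusted p = 1.58e-05), Birc5 (−0.78 ± 0.14, adjusted p = 2.06e-06) and Ccna2 (−0.69 ± 0.14, adjusted p = 1.49e-05). Cenpf was higher in vehicle females (0.65 ± 0.13, adjusted p = 1.55e-05) at 11 of 12 times. Most of these calls rested on the 10 vehicle males. Without them 5 members were lower in vehicle females (Ccnd1, Tyms, Birc5, Ube2c and Hmgb2), 4 were higher (Rrm1, Mcm4, Cenpf and Smc4), and the median difference was −0.06, with 22.3% of all genes lower and 3839 genes higher. Without library 35 alone 15 were lower and 5 higher, beside 5550 and 4863 of all genes. Endothelial markers were lower in vehicle females for 10 of 10, with sums of 1600 to 2597 CPM in vehicle females and 1752 to 3478 in vehicle males, and for 4 of 10 without the 10 libraries. Other lists held lower markers in vehicle females too. Macrophage markers were lower for 6 of 12 with 3 higher (6 lower and 0 higher without the 10 libraries). Erythroid markers were lower for 5 of 5 (4 without the 10 libraries) and neutrophil markers for 3 of 3 (3). Lymphocyte markers were lower for 4 of 5 with 1 higher (3 lower and 1 higher of 7 without the 10 libraries). Macrophage sums were 369 to 605 CPM in vehicle females and 419 to 790 in vehicle males, erythroid sums 290 to 1105 CPM in vehicle females and 412.3 to 1795 in vehicle males. Neutrophil sums were 1.74 to 6.68 CPM in vehicle females and 2.55 to 67.7 in vehicle males, and no marker was at 0. The part of these cell types in the result was not tested.

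**Figure D3:**
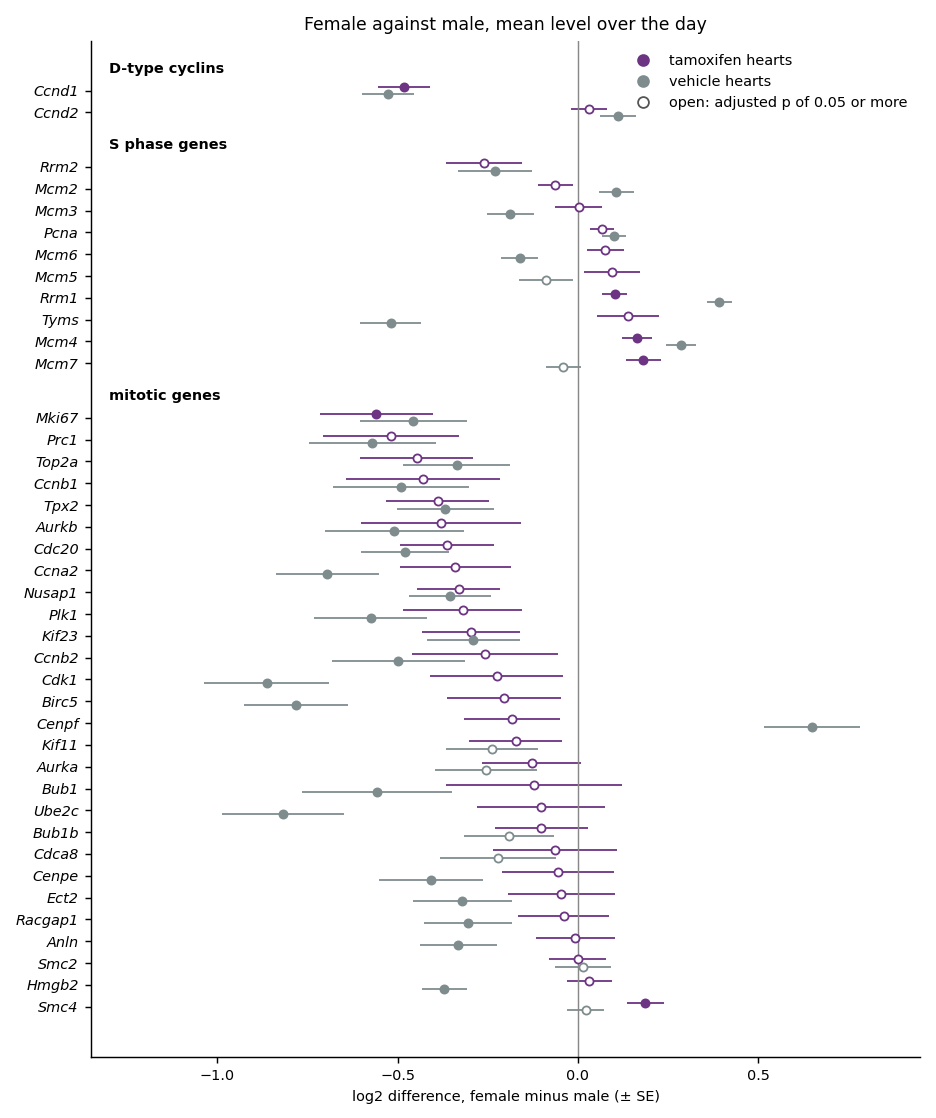
Log2 difference between the sexes (female minus male) of the 40 members, with standard errors, in tamoxifen and in vehicle hearts. The vehicle values are spread from −0.86 for Cdk1 to 0.65 for Cenpf, and the tamoxifen values from −0.56 for Mki67 to 0.19 for Smc4.

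The tamoxifen change itself differed between the sexes for 10 members (interaction, female minus male, edgeR quasi-likelihood test), against 52.3% of all tested genes. For Cenpf (log2 −0.83 ± 0.19, adjusted p = 0.000173), Rrm1 (−0.29 ± 0.05, adjusted p = 2.00e-06) and Mcm2 (−0.17 ± 0.07, adjusted p = 0.0321) the change was more negative in females. For Ube2c (0.72 ± 0.25), Tyms (0.66 ± 0.12), Cdk1 (0.64 ± 0.25), Birc5 (0.58 ± 0.22), Hmgb2 (0.40 ± 0.09), Mcm6 (0.24 ± 0.07) and Mcm7 (0.22 ± 0.07) it was more negative in males. Without the 10 vehicle males 4 of these calls remained, Cenpf (−0.66, adjusted p = 0.0170), Rrm1 (−0.19, adjusted p = 0.00319), Tyms (0.38, adjusted p = 0.0133) and Hmgb2 (0.28, adjusted p = 0.0192). Some marker lists moved with this difference, positive for 7 of 10 endothelial, 6 of 8 fibroblast, 4 of 5 erythroid and 3 of 3 neutrophil markers, and without the 10 libraries for 1, 3, 0 and 3. Other lists went both ways, with 3 positive and 3 negative of 12 macrophage and 3 and 4 of 8 cardiomyocyte markers. Mural markers had 1 and 1 of 6, and atrial markers 0 and 1 of 3. Without the 10 libraries macrophage markers had 0 and 1 and cardiomyocyte markers 4 and 2. Their part in the result was not tested. Mki67 did not pass the interaction test (−0.10 ± 0.21, adjusted p = 0.708).

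Few members were called rhythmic. Rhythms were tested as a 24 h cosine, whose amplitude is the distance from mean to peak in log2 units. Rhythmic members numbered 5 in tamoxifen females, 2 in tamoxifen males, 6 in vehicle females and 7 in vehicle males, against 17.1%, 8.03%, 34.5% and 55.2% of all tested genes. Of the mitotic genes 3, 0, 1 and 3 of 28 were rhythmic in these groups, and of the S phase genes 2, 2, 5 and 4 of 10. The median amplitude of the 40 members was 0.22, 0.18, 0.15 and 0.18 in this order, beside 0.12, 0.10, 0.15 and 0.20 over all genes. Without the library that goes against its label 3 were called in tamoxifen females, and Mcm4 and Nusap1 were not. Mki67 was not called in any group, with amplitudes of 0.18 ± 0.16, 0.20 ± 0.15, 0.01 ± 0.15 and 0.15 ± 0.15 in the same order.

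Mcm7 was the member called in all 4 groups. Its amplitude was 0.18 ± 0.05 in tamoxifen females with a fitted peak at ct 7.8 (hours modulo 24), 0.25 ± 0.05 in tamoxifen males with a peak at ct 9.9. It was 0.16 ± 0.05 in vehicle females with a peak at ct 4.8 and 0.24 ± 0.05 in vehicle males with a peak at ct 7.7, all in the subjective day. At ct 34 Mcm7 averaged 13.6 CPM in tamoxifen females, 13.1 in tamoxifen males, 11.4 in vehicle females and 14.6 in vehicle males, and at ct 18 the means were 9.56, 9.19, 10.1 and 9.33 CPM. Mcm4 was rhythmic in 3 groups, with amplitudes of 0.13 ± 0.04 in tamoxifen females, 0.18 ± 0.04 in tamoxifen males and 0.17 ± 0.04 in vehicle females and peaks at ct 5.3, 7.1 and 4.3. In vehicle females Mcm2 (0.23 ± 0.05, peak ct 6.7), Mcm5 (0.23 ± 0.08, peak ct 10.4) and Rrm1 (0.12 ± 0.03, peak ct 5.7) were also called. Mcm5 ran from 2.71 to 5.09 CPM (median 3.65) in tamoxifen females, from 2.68 to 5.16 (3.54) in tamoxifen males, from 2.71 to 5.85 (4.32) in vehicle females and from 2.90 to 7.82 (4.33) in vehicle males.

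The mitotic rhythms differed in phase from gene to gene. Kif23 was called in both vehicle groups and peaked early in the subjective night, at ct 15.3 in vehicle females (amplitude 0.46 ± 0.13, adjusted p = 0.0138) and ct 15.1 in vehicle males (0.37 ± 0.13, adjusted p = 0.0295). At ct 38 and ct 42 it averaged 2.98 and 2.95 CPM in vehicle females, against 1.33 and 1.34 CPM at ct 26 and ct 30. In tamoxifen females Birc5 (amplitude 0.57 ± 0.16, peak ct 6.4), Cenpf (0.50 ± 0.13, peak ct 10.3) and Nusap1 (0.37 ± 0.12, peak ct 5.0) were called. Nusap1 had medians of 1.23 CPM in tamoxifen females (0.683 to 3.11), 1.66 in tamoxifen males (1.10 to 2.36), 1.43 in vehicle females (1.10 to 2.95) and 2.02 in vehicle males (0.798 to 4.05). Its highest tamoxifen female, a library of ct 30, was also that of Ube2c. In vehicle males Cenpf peaked at ct 22.6 (0.41 ± 0.14), opposite in phase to tamoxifen females, and Rrm1 at ct 22.1 (0.23 ± 0.04). In the same group Tyms (0.43 ± 0.08, ct 8.0), Hmgb2 (0.21 ± 0.06, ct 7.1) and Mcm6 (0.16 ± 0.05, ct 12) peaked in the subjective day or at its end. Mcm6 had medians of 10.96 CPM in tamoxifen females (9.42 to 14.6), 10.4 in tamoxifen males (9.21 to 13.4), 11.3 in vehicle females (10.2 to 15.2) and 12.3 in vehicle males (9.23 to 17.9). The highest tamoxifen female, again the library that goes against its label, was followed by 12.8 CPM. The 10 vehicle males fall unevenly over the times, with both libraries of ct 30 and ct 34 and none of ct 18, ct 22, ct 46 and ct 50. Without them 3 members were rhythmic in vehicle males, against 18.6% of all genes. Rrm1 (amplitude 0.16, adjusted p = 0.0245) and Mcm7 (0.23, adjusted p = 0.0392) kept the call, while Tyms, Mcm6, Cenpf, Kif23 (0.36, adjusted p = 0.217) and Hmgb2 lost it.

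**Figure D4:**
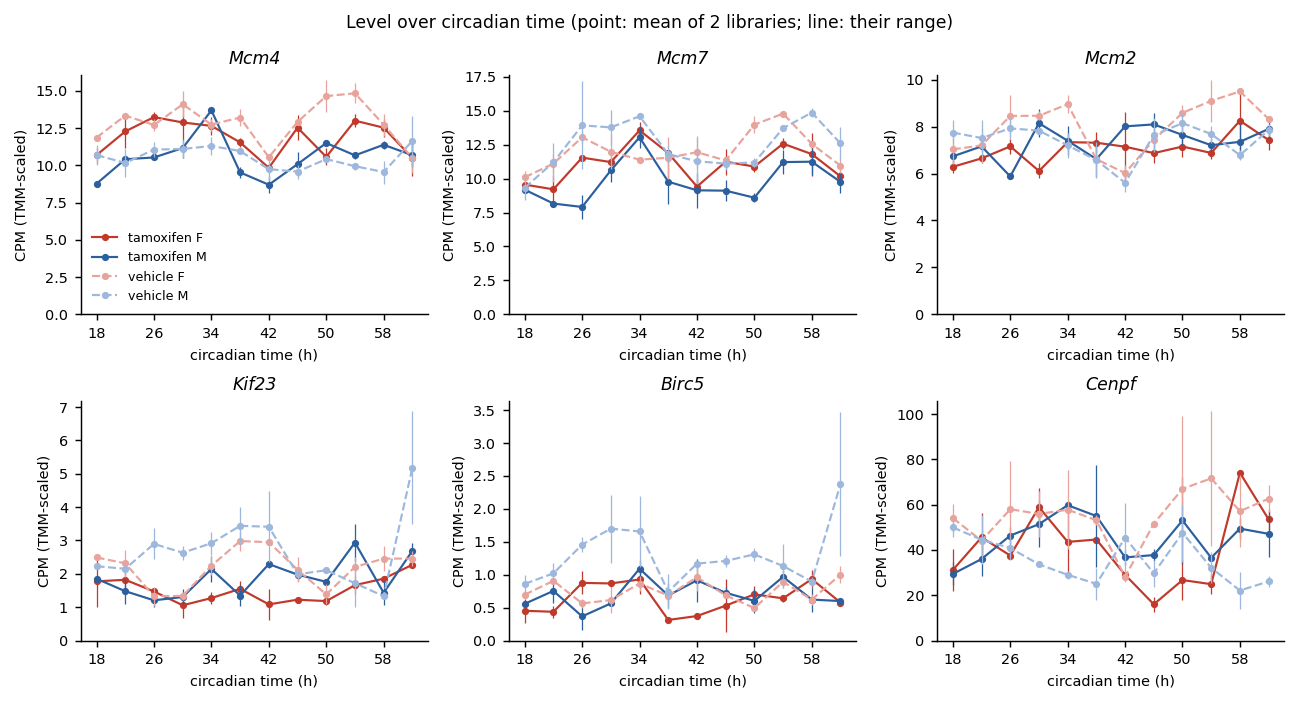
Levels of Mcm4, Mcm7, Mcm2, Kif23, Birc5 and Cenpf by circadian time in the 4 groups, as the mean of 2 libraries per time with their range. Kif23 in vehicle females falls to 1.33 CPM at ct 26 and stands at 2.98 CPM at ct 38.

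A difference of rhythm between tamoxifen and vehicle was called for 0 members in females, against 0.237% of all genes, with 3 members at an unadjusted p under 0.05 (0 adjusted and 3 unadjusted with DESeq2). In males it was called for 3, against 20.7% of all genes, namely Rrm1 (length of the vector between the fitted rhythms 0.28 ± 0.05, adjusted p = 0.000419), Tyms (0.42 ± 0.12, adjusted p = 0.0273) and Cenpf (0.68 ± 0.19, adjusted p = 0.0234). Without the 10 vehicle males Rrm1 remained called (0.22, adjusted p = 0.0317), and Tyms and Cenpf did not (adjusted p = 0.557 and 0.345).

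Mki67 and Top2a varied together among the libraries of each group. Across the 24 libraries, log2 levels of Mki67 and Top2a had Pearson r of 0.914 in tamoxifen females, 0.823 in tamoxifen males, 0.852 in vehicle females and 0.939 in vehicle males. Spearman rho was 0.933, 0.810, 0.856 and 0.867 (permutation p = 1e-05 each, the smallest that 100000 permutations give, adjusted p = 4e-05 over 16 relations). Without the 2 libraries farthest from the median of Mki67, r was 0.898, 0.666, 0.812 and 0.890. Mki67 and Rrm2 were related in vehicle females (r = 0.504, rho = 0.551, permutation p = 0.0129 and 0.00603, adjusted p = 0.0294 and 0.0161; r = 0.588 without the 2 farthest libraries). They were also related in vehicle males (r = 0.743, rho = 0.743, permutation p = 5e-05 and 8e-05, adjusted p = 0.00016 and 0.000256; r = 0.610). In tamoxifen females (r = 0.422, rho = 0.390, permutation p = 0.0407 and 0.0600) and tamoxifen males (r = 0.345, rho = 0.161, permutation p = 0.0999 and 0.450) they did not pass after adjustment. Mki67 and Mcm2 passed in none of the groups, with r of 0.350, 0.295, 0.232 and 0.211 and adjusted permutation p of 0.145, 0.198, 0.314 and 0.340. Mki67 and Ccnd2 passed by r alone in tamoxifen females (r = 0.523, permutation p = 0.00925, adjusted 0.0247; rho = 0.462, permutation p = 0.0245, adjusted 0.0559; r = 0.475 without the 2 farthest libraries). With scaling by library size alone, Mki67 and Mcm2 passed by rho in vehicle males (r = 0.431, rho = 0.481, permutation p = 0.0379 and 0.0181, adjusted p = 0.0606 and 0.0321). Mki67 and Rrm2 then passed by r in tamoxifen females (adjusted permutation p = 0.0460). Mki67 and Ccnd2 then passed by r and rho in tamoxifen females (adjusted permutation p = 0.00611 and 0.0160) and vehicle females (0.0460 and 0.0300), and by rho in tamoxifen males (0.0368) and vehicle males (0.0364). The libraries of a group share a scaling and span all 12 times. In vehicle males no correlation was computed without the 10 libraries high in TEC counts. Means in these 10 and the other 14 were 11.05 and 7.885 CPM for Mki67 and 5.759 and 4.394 for Top2a. They were 3.128 and 2.728 CPM for Rrm2, 7.18 and 7.521 for Mcm2, and 181.1 and 170.9 for Ccnd2.

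Of 123 other genes of the pathway listed for comparison, 112 were tested. In tamoxifen females 24 of them were lower and 8 higher than in vehicle females, beside 12.3% and 15.2% of all tested genes. The lowest log2 changes were those of Uhrf1, which recruits maintenance DNA methylation to replicated DNA (−0.78 ± 0.14), Hmmr, a spindle protein (−0.76 ± 0.23), Foxm1, the mitotic transcription factor (−0.73 ± 0.17), and Nek2, a centrosome kinase (−0.67 ± 0.22). Foxm1 had medians of 0.546 CPM in tamoxifen females (0.132 to 1.53) and 1.05 in vehicle females (0.403 to 1.92), with overlapping groups. Higher were Cdkn1a, the cell cycle inhibitor p21 (2.09 ± 0.16), Cenpa, the centromeric histone H3 variant (0.92 ± 0.06), and the clamp loader subunits Rfc5 (0.41 ± 0.07) and Rfc3 (0.24 ± 0.07). Cenpa was the 1 gene of the 32 other mitotic genes called higher in females, where 9 were called lower. It ran from 50.4 to 111.4 CPM with a median of 98.1 in tamoxifen females, from 47.4 to 116.6 with a median of 96.2 in tamoxifen males. It ran from 38.9 to 67.9 with a median of 48.5 in vehicle females and from 52.1 to 99.9 with a median of 66.3 in vehicle males. Cenpa was higher with tamoxifen at 12 of 12 times in both sexes.

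In tamoxifen males 55 of the 112 were lower and 24 higher than in vehicle males, beside 37.8% and 32.2% of all genes. Without the 10 vehicle males 25 were lower and 15 higher of 113 tested, beside 20.2% of all genes lower and 3467 genes higher. The lowest were Ncapg, a condensin subunit (−0.98 ± 0.21), Dlgap5, a spindle protein (−0.90 ± 0.22), Nek2 (−0.87 ± 0.21) and the chromokinesin Kif22 (−0.80 ± 0.17), of which Nek2 alone stayed called without the 10 libraries (−0.65, adjusted p = 0.0301). The highest were Cdkn1a (1.76 ± 0.16), the E2F factors E2f3 (0.54 ± 0.06) and E2f6 (0.49 ± 0.06) and Cenpa (0.51 ± 0.06), and all 4 stayed called without those libraries. Between the sexes, 5 of the 112 were lower in tamoxifen females than in tamoxifen males and 3 higher, beside 3.60% and 4.08% of all genes. The lowest were Pbk, a mitotic kinase (−0.77 ± 0.25), Foxm1 (−0.61 ± 0.17), E2f2 (−0.57 ± 0.19) and Ccne1, cyclin E1 (−0.44 ± 0.12). The higher ones were Prim1, a primase subunit (0.32 ± 0.09), and the inhibitors Cdkn2c (0.16 ± 0.05) and Cdkn1b (0.16 ± 0.03). Foxm1 was thus called in the same direction as Mki67 in this comparison, with medians of 0.546 CPM in tamoxifen females and 0.948 in tamoxifen males. In vehicle females 55 of the 112 were lower than in vehicle males and 27 higher, beside 36.5% and 31.8% of all genes. Without the 10 vehicle males 15 were lower and 15 higher of 113 tested, beside 3508 and 3839 of all genes. The lowest were E2f2 (−0.95 ± 0.18), Ncapg (−0.91 ± 0.20), Kif22 (−0.66 ± 0.16) and Pbk (−0.66 ± 0.22), of which E2f2 alone stayed called without those libraries. The highest were Ckap5, a microtubule polymerase (0.69 ± 0.07), the pocket protein Rbl2 (0.58 ± 0.06), Rrm2b, a p53-responsive ribonucleotide reductase subunit (0.51 ± 0.07), and the MuvB subunit Lin9 (0.38 ± 0.07). The interaction was called for 45 of the 112, 23 positive and 22 negative, beside 27.0% and 25.4% of all genes, and without the 10 vehicle males 9 were positive and 11 negative, beside 28.6% of all genes called. At the positive end stood Ncapg (0.80 ± 0.31), Prim1 (0.73 ± 0.12), Cdc7, a replication origin kinase (0.61 ± 0.15), and Timeless, a replication fork protein (0.54 ± 0.11), of which Prim1 alone stayed called without those libraries. At the negative end stood Ckap5 (−0.65 ± 0.10), Wee1, the kinase that restrains CDK1 (−0.57 ± 0.13), Rbl2 (−0.52 ± 0.09) and Tfdp2, an E2F partner (−0.46 ± 0.11), and all 4 stayed called.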

How the data were processed

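RNA of 96 ventricle libraries was extracted with RNeasy and sequenced on a NovaSeq after poly-A selection, per the labels' protocols. The submitters' processing notes name HISAT2, HTSeq and Picard and the build GRCm38/mm10, with versions not given in the sources used here. The deposited values are raw counts per gene, and no column was left without a sample. Genes were kept by the filterByExpr rule of edgeR 4.0.16 with a minimum count of 10 (15629 of 55376 genes), scaled by TMM and fitted in R 4.3.3 by a quasi-likelihood model with 12 coefficients, a mean and a 24 h cosine and sine per group, leaving 84 residual degrees of freedom. Calls used Benjamini-Hochberg adjusted p under 0.05 over all tested genes. Every p printed for a log2 change, rhythm or interaction comes from this edgeR fit unless another tool is named. Errors of log2 changes and amplitudes are SE, and those of levels are SD.

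CPM were computed after TMM scaling, and correlations used log2(CPM + 0.1). The levels of Arntl, Xist and Ddx3y, the limit of 20 CPM for Myl7 and the level of 3 counts used library totals without TMM scaling. Alternatives were library size scaling, DESeq2 1.42.0 size factors and test, no filter on low counts, 1 mean per group and time, a length and GC correction, single 24 h spans, leaving out each time, and leaving out libraries that stand apart. Leaving out vehicle male library 35, leaving out 3 tamoxifen libraries low in Arntl and splitting the tamoxifen libraries by title number were chosen after seeing the data. Full values are given for the 5 largest called changes of each comparison, for rhythmic members and for Mki67, Top2a, Pcna, Mcm2, Ccnd1 and Ccnd2, and of the other pathway genes the up to 4 largest in each direction. The members and lists were chosen with earlier results of these data known. Promoters were read from RefSeq with python 3.11.15. Depth limits the lowest mitotic genes, whose intervals of counting error reach the level of 3 counts.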

Additional observations from a re-analysis of the deposited data

Results flagged for a closer look

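The tamoxifen change differed between the sexes for 10 members by the interaction term of the edgeR quasi-likelihood fit, against 52.3% of all tested genes. As the log2 change in females minus that in males, the values were −0.83 for Cenpf, −0.29 for Rrm1 and −0.17 for Mcm2. They were 0.72 for Ube2c, 0.66 for Tyms, 0.64 for Cdk1, 0.58 for Birc5, 0.40 for Hmgb2, 0.24 for Mcm6 and 0.22 for Mcm7. Without the 10 vehicle males high in TEC counts, Cenpf, Rrm1, Tyms and Hmgb2 were still called, with 28.6% of all genes.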

How the results depend on the processing

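No paired analysis was possible because no replicate number is shared between groups. With tamoxifen in females, 16 members were lower. The count was 26 with 1 mean per group and time, 10 without libraries above 20 CPM of the atrial gene Myl7, 25 without the 10 vehicle males high in TEC counts, 9 and 6 in the first and second 24 h, and 7 with the higher-numbered run of tamoxifen titles. All genes called lower numbered 1918 in the main fit and 2156, 1512, 2547, 1055, 981 and 1409 in this order. With tamoxifen in males, 31 were lower, against 13 without the 10 vehicle males and 20 in the second 24 h. All genes called lower numbered 5905, 3185 and 3979 in this order. The 2 higher members became 1 under library size scaling, the length and GC correction, without the 10 vehicle males, in either 24 h and with the lower-numbered run. All genes called higher numbered 5031 in the main fit and 3825, 4864, 3467, 4754, 3959 and 4565 in this order. Between tamoxifen females and males, the 2 lower became 6 with 1 mean per group and time, 5 with the length and GC correction, 4 without the library that goes against its label, 8 without the 10 vehicle males, 7 without vehicle male library 35, and 1 in the first 24 h and with either run. All genes called lower numbered 563 in the main fit and 708, 743, 530, 937, 604, 267, 276 and 138 in this order. The 4 higher became 1 in the first 24 h and 0 in the second and with either run. All genes called higher numbered 638 in the main fit and 267, 236, 361 and 262 in this order. Between vehicle females and males, the 26 lower became 16 with no filter, 5 without the 10 vehicle males, 15 and 12 in the first and second 24 h, and 15 without library 35. All genes called lower numbered 5712 in the main fit and 6194, 3508, 4781, 3863 and 5550 in this order. The 10 interaction calls became 4 without the 10 vehicle males, in the second 24 h and with the lower-numbered run. Of all genes 4216 were positive and 3965 negative in the main fit. In these settings they numbered 2119 and 2381, 2364 and 2595, and 2463 and 3135.

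Rhythmic members in tamoxifen females (5) numbered 3 with no filter, with the length and GC correction, without the library that goes against its label and without the Myl7 libraries, 8 without the 10 vehicle males, 0 and 2 in the first and second 24 h, and 2 and 1 with the lower- and higher-numbered runs. In tamoxifen males (2) they numbered 1 without the Myl7 libraries, 4 without the 10 vehicle males, 0 in the second 24 h, and 1 and 0 with the runs. In vehicle females (6) they numbered 1 in the first 24 h, and in vehicle males (7) 3 without the 10 libraries and 17 and 13 in the first and second 24 h. The 3 changes of rhythm in males became 1 without the Myl7 libraries, 6 and 0 in the first and second 24 h, 5 without library 35, and 1 and 0 with the runs. The cause was not tested. No number over all genes stands beside the rhythm counts of this section, so they do not describe the members alone.

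Leaving out 1 time at a time gave 12 to 20 lower and 0 to 0 higher with tamoxifen in females, and 29 to 34 lower and 1 to 2 higher in males. Of all genes 1603 to 2037 were lower and 1776 to 2278 higher in females. In males these were 5495 to 6381 and 4557 to 5048. Between the sexes it gave 1 to 6 lower and 2 to 4 higher with tamoxifen, 13 to 28 lower and 4 to 6 higher with vehicle, and 6 to 13 interactions. Of all genes 341 to 638 were lower and at most 690 higher between the sexes with tamoxifen. With vehicle 5136 to 5803 of all genes were lower and 4615 to 5178 higher. The interaction was positive for 3574 to 4386 of all genes and negative for 3585 to 4145. Rhythmic members numbered 2 to 5, 1 to 2, 4 to 6 and 5 to 11 in tamoxifen females, tamoxifen males, vehicle females and vehicle males, and changes of rhythm 0 to 0 in females and 1 to 5 in males. Signs turned without the 10 vehicle males for Plk1 (0.0136) and Anln (0.0504) with tamoxifen in males and for Anln (0.0629) and Mcm6 (0.0173) between vehicle females and males, and with the length and GC correction for Ccnd2 (−0.030) between vehicle females and males. Members called under every alternative numbered 2 with tamoxifen in females (Kif23 and Mki67), 14 in males, 1 between the sexes with tamoxifen (Ccnd1), 8 with vehicle and 4 for the interaction. In the main fit 27.5%, 70.0%, 7.68%, 68.3% and 52.3% of all genes were called in this order. The share of all genes called under every alternative was not computed, so these counts do not describe the members alone. Scaling by library size alone moved the median of all genes to −0.14 in males, and the split of higher and lower genes was 1794 and 2395 in females (2381 and 1918 with TMM), 3825 and 7575 in males (5031 and 5905), 752 and 377 between the sexes with tamoxifen (638 and 563), and 5157 and 3235 for the interaction (4216 and 3965).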
